A study of Mus musculus with 34 samples.

Results

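The muscle by training interaction at 24 months asks whether 8 weeks of progressive weighted wheel running (PoWeR), in which a mouse runs by choice on a wheel that carries added weight, went with a different change of gene expression in the soleus than in the plantaris of old mice. Its members are the libraries of mice aged 24 months, chosen by their labels: 18 of the 34 libraries of the series. All are bulk RNA sequencing libraries from female mice, with no strain, allele or transgene given in the labels. The 4 groups are sedentary soleus (5 libraries), PoWeR soleus (4), sedentary plantaris (5) and PoWeR plantaris (4), the runners sampled after a wheel lock of 24 h and an overnight fast. Libraries carry the numbers 12 to 16 in the sedentary groups and 10, 12, 14 and 15 in the PoWeR groups, and each number occurs in both muscles, so that 9 soleus libraries could be set beside 9 plantaris libraries.

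The soleus is a small postural muscle of the calf, rich in slow and fast oxidative fibres that burn fat and sugar in mitochondria. The plantaris lies beside it, is built mostly of fast glycolytic fibres, and is loaded heavily when a mouse pushes a weighted wheel. Endurance exercise is known for raising mitochondrial content, resistance exercise for enlarging fibres, and old muscle for losing nerve contacts and for expressing genes of denervated fibres.

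The interaction was computed as the PoWeR minus sedentary difference of the soleus minus plantaris log2 expression within a number. A positive value means that the effect of PoWeR was more positive in soleus, and a negative value that it was more negative there. Nothing in the labels states that equal numbers are 1 animal, or that each library of a group is from an animal of its own. The p-values therefore measure only how far these samples spread, which may in part be technical. Libraries of equal number and training are taken here as 1 animal and called so below, which is an assumption, and the result without it stands beside the main count. Levels are CPM, the count of a gene divided by the library total (in units of 1e6 reads) after TMM scaling.

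Total counts of the 18 libraries were 15237626 to 21378026. In the plantaris groups the title says soleus and the source name plantaris, and the protocol text of the soleus samples names plantaris RNA, so the muscle was checked on myosin heavy chains. Myh7, the slow heavy chain, had 20978 to 31063 CPM in the 9 soleus libraries and 60.7 to 1781 CPM in the 9 plantaris libraries, and Myh4, the fast glycolytic heavy chain, had 14.4 to 1649 CPM against 13698 to 74596 CPM. The groups of the source names did not overlap in either gene.

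The genes whose interaction passed the test were Krt18 and Krt8, the partner genes of a simple epithelial keratin filament. Both were lower in soleus than in plantaris of every sedentary animal and higher in soleus than in plantaris of every PoWeR animal. In PoWeR animal 14 the higher level rested on few reads, 12 counts against 9 for Krt18 and 3 against 2 for Krt8. By edgeR's quasi-likelihood F test with the animal as a block, these 2 of 14823 genes passed at an adjusted p under 0.05 (0.0135%), both positive, and 2136 (14.4%) had an unadjusted p under 0.05. At an adjusted p under 0.1 there were 105 genes (0.708%), 41 positive (0.277%) and 64 negative (0.432%). That count of 105 was far from stable: it was 0 without the animal block, 14 without mitochondrially encoded genes, 23 without sedentary animal 16 and PoWeR animal 12, and 177 over genes above 5 mean CPM. With 1 animal left out it was 3, 5, 2, 18 and 11 without sedentary animals 12 to 16, and 486, 4, 25 and 2 without PoWeR animals 10, 12, 14 and 15. It was 203 by limma with the animal as a correlation, 438 by limma with quality weights, 471 by DESeq2 and 437 with no filter on low counts. Among the 41, the fitted effect was positive in soleus and negative in plantaris for 36, and among the 64 it was negative in soleus and positive in plantaris for 62. The muscle with the higher level differed between sedentary and PoWeR animals for 62 of the 105 (59%), against 4157 of all 14823 genes (28%). Since the 105 were picked by the interaction itself, these patterns are a description of them. The count of 2 became 0 without the animal block (1785 genes at an unadjusted p under 0.05), 0 without sedentary animal 15 (2220 genes at an unadjusted p under 0.05), 1 without sedentary animal 14 (Ces2c), 1 without PoWeR animal 15 (Krt18) and 155 without PoWeR animal 10, 45 positive and 110 negative. DESeq2 with the same block called 247 genes (104 positive and 143 negative), limma with quality weights 133 (47 and 86), and limma with the animal as a correlation 0 (2266 unadjusted).

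Krt18 (mm10 chr15:102028180-102032027, plus strand) encodes the acidic partner and Krt8 (chr15:101996698-102004482, minus strand) the basic partner of the pair. Their promoters are printed because both genes passed. Those of Dok7 and Tnip1, which did not pass, are printed to show the motif below and were chosen after it had been found in them. The promoter of Krt8, which passed, does not hold that motif. Those of Runx1, Obsl1, Srebf1, Cpne2, Tjp1, Dixdc1 and Unc13b do not hold it either. Sequences are from RefSeq (GRCm38.p6), 5′ to 3′ on the strand of the gene, up to 250 bases before the RefSeq start and without the bases that lie inside the gene as the deposited table gives it. Capitals mark a match to the NF-kB motif, searched by that name on both strands.
Krt18 (chr15:102027966-102028179, plus strand): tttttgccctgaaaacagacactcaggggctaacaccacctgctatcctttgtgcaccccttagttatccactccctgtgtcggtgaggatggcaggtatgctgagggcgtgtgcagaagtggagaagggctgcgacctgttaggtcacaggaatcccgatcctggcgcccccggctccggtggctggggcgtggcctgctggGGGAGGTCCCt
Krt8 (chr15:102004483-102004592, minus strand): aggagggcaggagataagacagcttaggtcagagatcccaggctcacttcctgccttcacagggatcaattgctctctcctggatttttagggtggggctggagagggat
Dok7 (chr5:35056516-35056765, plus strand): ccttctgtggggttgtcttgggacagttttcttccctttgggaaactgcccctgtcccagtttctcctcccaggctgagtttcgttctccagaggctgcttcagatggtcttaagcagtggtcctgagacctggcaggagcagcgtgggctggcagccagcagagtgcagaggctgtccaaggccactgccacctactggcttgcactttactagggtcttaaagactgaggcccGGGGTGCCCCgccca
Tnip1 (chr11:54962941-54963190, minus strand): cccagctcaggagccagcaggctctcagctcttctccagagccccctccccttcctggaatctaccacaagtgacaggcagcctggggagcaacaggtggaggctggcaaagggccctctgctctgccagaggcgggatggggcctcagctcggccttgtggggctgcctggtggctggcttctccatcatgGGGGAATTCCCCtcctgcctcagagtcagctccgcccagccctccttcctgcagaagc
The motif was chosen after the names of the genes had been seen. It was present in the 250 bases of 5 of the 13 named genes with a promoter entry (Krt18, Dok7, Nfkb2, Ces2c and Tnip1), against 7.28% of 32536 promoters of the same length. Its first base lay at -47 in Krt18, -15 in Dok7 and -141 in Ces2c, counted from the RefSeq start, and in Nfkb2 and Tnip1 overlapping matches were found. The shorter E-box CANNTG was present in 10 of the 13, against 66.2% of promoters, and the RUNX motif TGTGGT in 1, against 14%. A match is a stretch of letters and shows no binding.

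Krt18 had 0.114, 0.442, 1.69, 0.434 and 0.41 CPM in soleus of sedentary animals 12 to 16, and 15.4, 27.8, 0.681 and 7.60 CPM in soleus of PoWeR animals 10, 12, 14 and 15. In plantaris it had 1.21, 1.44, 19.4, 5.53 and 4.45 CPM in the sedentary animals and 8.08, 4.34, 0.629 and 0.905 CPM in the PoWeR animals. Levels overlapped in each muscle, PoWeR animal 14 being at a sedentary level in soleus and sedentary animal 14 the highest in plantaris. The differences within animals did not overlap, which held for 5.27% of all genes (2.47% with PoWeR higher): soleus minus plantaris was -3.43 to -1.48 log2 in sedentary and 0.096 to 2.91 log2 in PoWeR animals. The interaction of Krt18 was 5.13 ± 0.58 (SE, log2; adjusted p = 0.0117, edgeR). The effect of PoWeR was 4.35 ± 1.13 in soleus (adjusted p = 0.133) and -0.88 ± 0.99 in plantaris (adjusted p = 0.753), neither past the test. Without the block the interaction of Krt18 was 5.23 with an adjusted p of 0.200. With 1 animal left out at a time it was 4.74 to 5.60 and passed in 7 of 9 fits, all but those without sedentary animal 14 or 15.

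Krt8 had 0, 0, 0.0565, 0 and 0 CPM in sedentary soleus, 1 count in all, and 7.49, 3.63, 0.17 and 1.43 CPM in PoWeR soleus. In plantaris it had 0.191, 0.3, 2.42, 1.23 and 0.839 CPM in sedentary and 0.245, 1.48, 0.14 and 0.106 CPM in PoWeR animals. The soleus groups did not overlap, the plantaris groups did, and PoWeR soleus of animal 14 was again the lowest of its group. In summed counts PoWeR soleus had 226 against 1, a ratio of 287 per total count with a 95% counting interval of 51.0 to 11387, and PoWeR plantaris 33 against 79, a ratio of 0.506 (0.326 to 0.768); these intervals cover counting error only. The interaction of Krt8 was 8.44 ± 1.13 (SE, log2; adjusted p = 0.0117, edgeR), with an effect of 7.37 ± 1.34 in soleus that passed (adjusted p = 0.0299) and of -1.0 ± 0.92 in plantaris that did not. These fitted sizes depend on the prior count, since sedentary soleus is near 0. Without the block the adjusted p was 0.116, and the call stood in 6 of 9 fits with an animal left out, all but those without sedentary animal 14 or 15 or PoWeR animal 15. DESeq2 gave no adjusted p for Krt8 and so did not call it. Of the words of 31 bases in Krt8 transcripts, 36.0% also occur in other genes, most in the pseudogene Krt8-ps, against 11.4% for Krt18, so reads of Krt8 could be split with its copies.

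**Figure D1:**
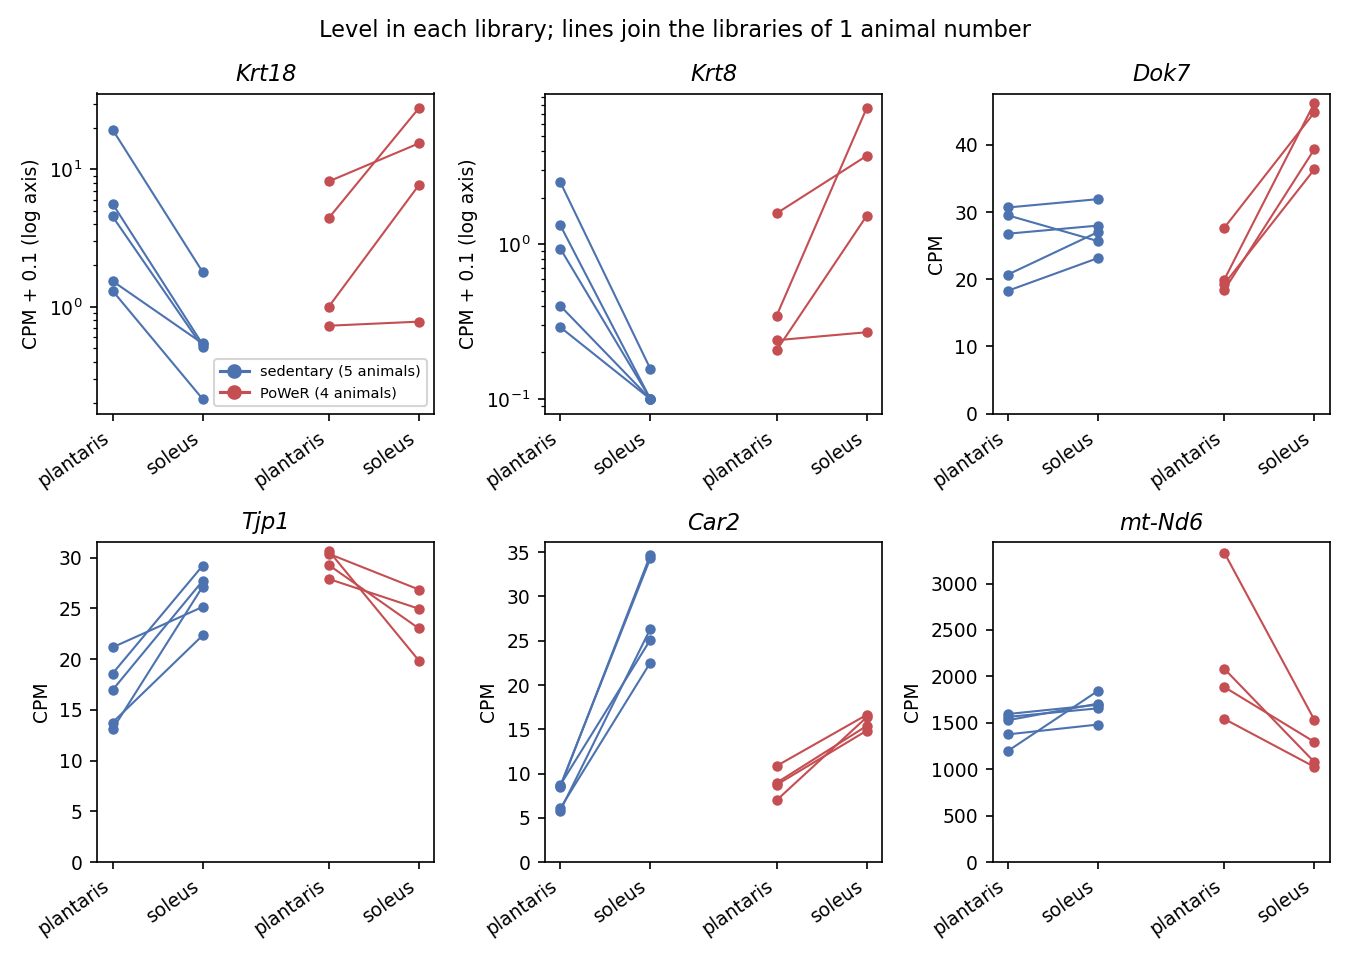
CPM in each library (Krt18 and Krt8 as CPM + 0.1 on a log axis, the others on linear axes from 0), with lines that join the plantaris and soleus libraries of an animal, sedentary in blue (5 animals) and PoWeR in red (4 animals). Lines of Krt18 and Krt8 fall from plantaris to soleus in all sedentary and rise in all PoWeR animals. In PoWeR animal 14 the rise is from 9 to 12 counts for Krt18 and from 2 to 3 for Krt8. Lines of Tjp1 rise in all sedentary and fall in all PoWeR animals.

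Genes after the keratins did not pass at 0.05 and are named by their smallest p. Among the positive ones, Vars, the valyl-tRNA synthetase that charges tRNA for protein synthesis (chr17:35000987-35016322), had 25.7, 25.9, 29.1, 26.3 and 28.9 CPM in sedentary soleus and 45.0, 41.0, 36.1 and 37.3 CPM in PoWeR soleus. In plantaris Vars had 47.2, 36.9, 50.3, 32.8 and 45.4 CPM in sedentary and 47.0, 27.9, 29.8 and 29.3 CPM in PoWeR animals. The soleus groups did not overlap, and in plantaris 3 of the 4 PoWeR libraries were below all sedentary ones. The interaction of Vars was 0.91 ± 0.15 (adjusted p = 0.0597, edgeR), with effects of 0.55 in soleus and -0.34 in plantaris.

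Dok7, the adaptor that activates the receptor kinase MuSK at the nerve-muscle synapse (chr5:35056766-35087839), had 25.7, 31.9, 28, 23.2 and 27.0 CPM in sedentary soleus and 36.4, 46.3, 39.4 and 44.9 CPM in PoWeR soleus. In plantaris Dok7 had 29.5, 30.7, 26.8, 18.3 and 20.7 CPM in sedentary and 19.3, 20, 18.4 and 27.7 CPM in PoWeR animals. The soleus groups did not overlap and the plantaris groups did. The interaction of Dok7 was 0.85 ± 0.16 (adjusted p = 0.0778, edgeR).

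The other positive genes include regulators of inflammation and a regulator of lipid synthesis, Srebf1. The list of 14 lipid synthesis genes had 7 positive and 7 negative interactions (median -0.01, and 0.20 in soleus against 0.40 in plantaris). Runx1, a transcription factor of denervated muscle, had an interaction of 2.10 ± 0.37. It was at 2.78 to 4.58 CPM in sedentary soleus and at 33.2, 37.4, 3.18 and 9.20 CPM in soleus of PoWeR animals 10, 12, 14 and 15, so that, as for Krt18, animal 14 lay within the sedentary range and animals 10 and 12 were highest. Nfkb2, an NF-kB subunit, had an interaction of 0.96 ± 0.18, and Tnip1, which restrains NF-kB signalling, of 1.01 ± 0.21. Srebf1, the master regulator of fatty acid synthesis genes, had 0.89 ± 0.18, Obsl1, a giant protein of the sarcomere's scaffold, 0.86 ± 0.17, and Cpne2, a calcium-dependent membrane binding protein, 1.18 ± 0.25. Ces2c, a carboxylesterase, had 5.25 ± 0.92, but 50.1% of its 31-base words occur in other genes. In soleus Ces2c had 0, 0.126, 3.27, 0.186 and 0.0585 CPM in sedentary and 23.3, 11.2, 0.454 and 4.69 CPM in PoWeR animals. DESeq2 gave no adjusted p for it. BC023105, annotated as a pseudogene on chromosome 18, had 1.94 ± 0.40 and shares 29.3% of its words. Its means in soleus were near 0, 0.25 CPM in sedentary and 0.69 CPM in PoWeR animals. Adjusted p ran from 0.0778 to 0.0894 for these 8 genes.

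Of the negative genes, Tjp1, which encodes the junction scaffold ZO-1 (chr7:65296165-65527781), had 27.7, 22.3, 27.2, 25.2 and 29.2 CPM in sedentary soleus and 19.9, 23.0, 25 and 26.9 CPM in PoWeR soleus. In plantaris Tjp1 had 17.0, 13.8, 13.1, 21.2 and 18.6 CPM in sedentary and 30.7, 29.3, 27.9 and 30.4 CPM in PoWeR animals. Soleus levels overlapped, plantaris levels did not, and the muscle with more Tjp1 was the soleus in all 5 sedentary and the plantaris in all 4 PoWeR animals. The interaction of Tjp1 was -1.0 ± 0.17 (adjusted p = 0.0597, edgeR). Its rise in plantaris, 0.82 log2, was the only effect there that passed the test (adjusted p = 0.0355; 1 of 14823 genes, 0.00675%), while the effect in soleus was -0.15 (adjusted p = 0.717). The plantaris count is 0 with only the plantaris groups in the fit, 119 by DESeq2, 33 without PoWeR animal 10, 6 without sedentary animal 13 or PoWeR animal 14, and 0 without sedentary animal 12, 14 or 16 or without PoWeR animal 12 or 15.

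Car2, a carbonic anhydrase (chr3:14886273-14900770), had 34.7, 25.1, 26.4, 34.3 and 22.5 CPM in sedentary soleus and 16.4, 14.8, 15.4 and 16.6 CPM in PoWeR soleus. In plantaris Car2 had 8.48, 8.71, 5.82, 8.60 and 6.07 CPM in sedentary and 6.98, 8.73, 8.95 and 10.9 CPM in PoWeR animals. The soleus groups lay apart and the plantaris groups overlapped. Car2 fell in soleus (-0.86 log2; adjusted p = 0.0269, edgeR), where 31 of 14823 genes passed (0.209%), 13 higher and 18 lower. Its interaction was -1.08 ± 0.18 (adjusted p = 0.0597). The soleus count is 225 with only the soleus groups in the fit, 200 by DESeq2, 3 without sedentary animal 12 or 15, 1 without sedentary animal 14, 8 without PoWeR animal 12 and 11 without PoWeR animal 15.

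mt-Nd6, a complex I subunit and the gene read from the light strand of mitochondrial DNA (chrM:13552-14070), had 1707, 1656, 1482, 1694 and 1846 CPM in sedentary soleus and 1025, 1294, 1077 and 1531 CPM in PoWeR soleus. In plantaris mt-Nd6 had 1528, 1564, 1376, 1595 and 1198 CPM in sedentary and 1542, 1885, 2081 and 3332 CPM in PoWeR animals. Only PoWeR animal 15 reached the sedentary range in soleus, and only animal 10 in plantaris. The interaction of mt-Nd6 was -1.01 ± 0.17 (adjusted p = 0.0597, edgeR). Dixdc1, a scaffold of Wnt signalling (chr9:50662752-50739517), had 15.6, 12.6, 11.5, 14.6 and 12.7 CPM in sedentary soleus and 6.29, 5.96, 7.38 and 9.54 CPM in PoWeR soleus. In plantaris Dixdc1 had 3.38, 4.32, 4.24, 3.69 and 2.65 CPM in sedentary and 4.22, 7.42, 5.25 and 6.01 CPM in PoWeR animals. Its soleus groups did not overlap, its fall there passed (-0.88 log2; adjusted p = 0.0477), and its interaction was -1.53 ± 0.26 (adjusted p = 0.0693).

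The remaining negative genes named by the rule are mt-Nd5, mt-Co1, Unc13b and 5 pseudogenes. Unc13b, a vesicle priming factor, had an interaction of -1.42 ± 0.27. Gm13340, Gm10925 and Gm28661 are nuclear copies of mitochondrial DNA: 45.2% of the 31-base words of Gm13340 are in mt-Co1, and 100% of those of Gm10925 and Gm28661 are in mt-Atp6 and mt-Co2. Gm10250 shares 80.1% of its words with Atp5h and Rps25-ps1 72.1% with Rps25. Their counts, with interactions of -1.08 to -0.83, are therefore uncertain and may hold reads of the genes they copy. Of the 64 negative genes at an adjusted p under 0.1, 12 lie on the mitochondrial chromosome and 11 are annotated as pseudogenes, against 15 and 624 of all 7769 genes with a negative interaction.

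**Figure D2:**
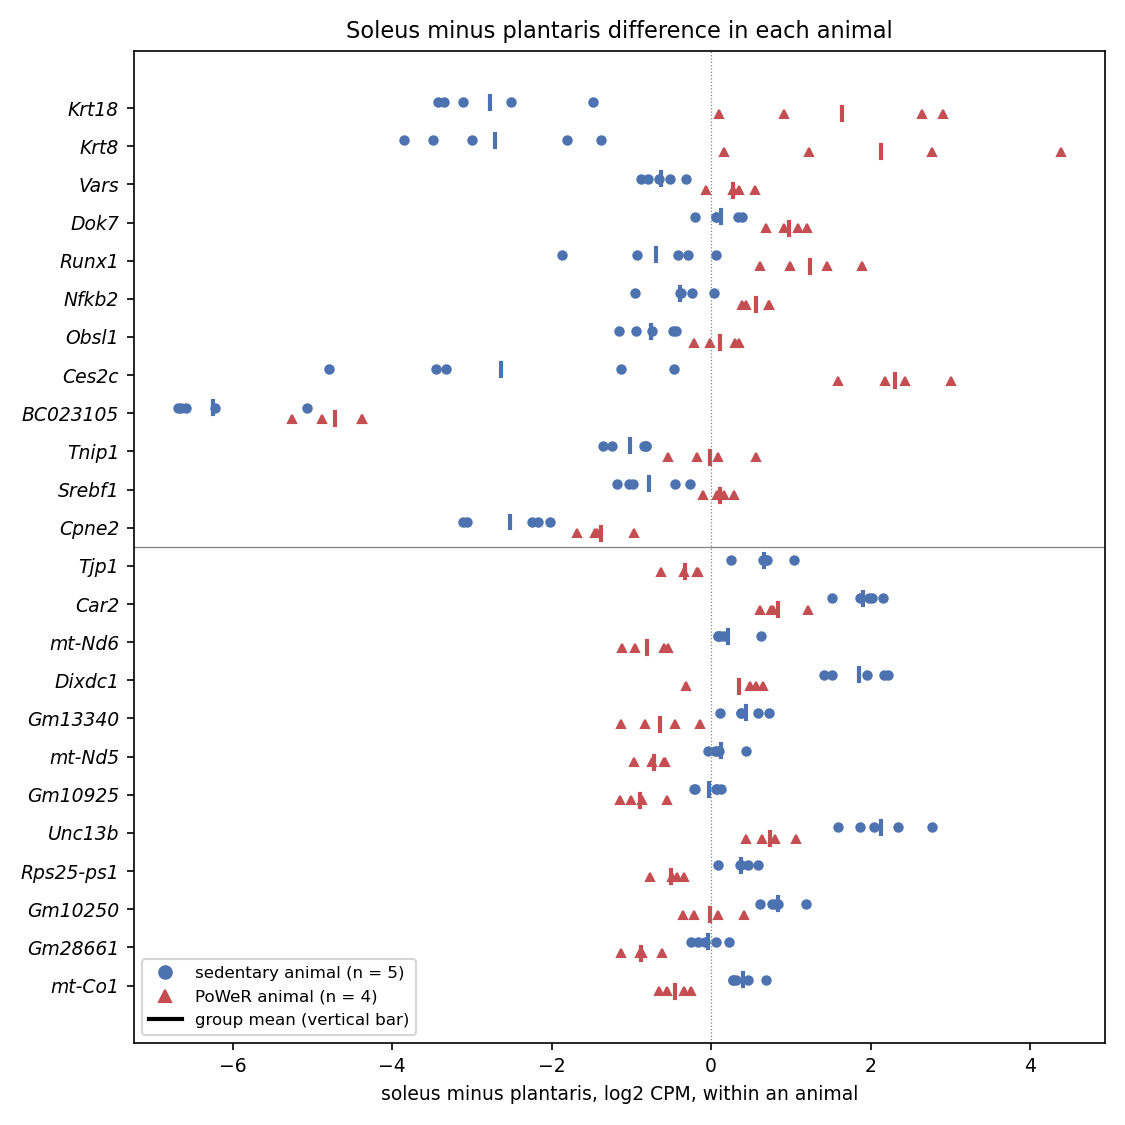
Soleus minus plantaris difference of log2 CPM in each animal for the 24 genes named by the smallest p, positive interactions above the line and negative below; circles are the 5 sedentary and triangles the 4 PoWeR animals, and vertical bars are group means. The 2 groups are apart in every gene except BC023105, where a sedentary animal at -5.07 lies among the PoWeR animals; 5.27% of all genes are apart, and these genes were picked by the interaction itself. Only Krt18 and Krt8 passed at an adjusted p under 0.05.

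Genes of mitochondrial respiration had lower fitted values in soleus and higher ones in plantaris after PoWeR. Of 13 mitochondrially encoded genes, all had a negative interaction (52.4% of all genes tested did) and an unadjusted p under 0.05 (7.31% of all genes did in that direction), and their differences within animals were lower in PoWeR than in sedentary animals without overlap (2.8% of all genes). None passed at 0.05 by edgeR, and 12 were at an adjusted p under 0.1, all but mt-Nd4l. Their median interaction was -0.85 log2, against -0.02 over all genes, with median effects of -0.40 in soleus and 0.49 in plantaris. mt-Co1, the catalytic subunit of cytochrome oxidase (chrM:5328-6872), had an interaction of -0.85 ± 0.17, and mt-Nd5, a complex I subunit, of -0.85 ± 0.16. The largest was that of mt-Atp8 (-1.46 ± 0.27), named after its value was seen. DESeq2 called all 13 of these genes (247 of 14823 genes in all), limma with quality weights 12 (of 133), the fit without PoWeR animal 10 called 12 (of 155) and the fit with no filter 11 (of 242). Without PoWeR animal 12, and without it and sedentary animal 16, 1 was called (mt-Nd6), and 0 were called without the block, by limma with the animal as a correlation, with all 34 libraries or without any other animal.

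As a share of all counts, the mitochondrially encoded genes made up 14.2, 12.9, 13.7, 14 and 14.2% in sedentary soleus and 10.4, 11.3, 10.7 and 13.2% in PoWeR soleus. In plantaris they made up 11.6, 11.5, 10.9, 12.5 and 9.02% in sedentary and 12.1, 17.0, 13.2 and 19.8% in PoWeR animals. The means were 13.8 ± 0.545 and 11.4 ± 1.24% in soleus and 11.1 ± 1.30 and 15.5 ± 3.53% in plantaris (SD, n = 5 and 4). The soleus minus plantaris difference of the log2 share was positive in 5 of 5 sedentary and negative in 4 of 4 PoWeR animals, and the group means differed by -0.75 log2 (exact two-sided permutation p = 0.0159, the smallest that splits of 9 animals into 5 and 4 can give; adjusted p = 0.0794 over 5 shares). The share may leave out reads counted under nuclear copies such as Gm28661 and Gm10925, whose means were 6364 and 4475 CPM in sedentary soleus. A share of counts cannot tell fewer mitochondria from less RNA in each, and in bulk muscle fewer cells of a type cannot be told apart from less RNA per cell.

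The nuclear subunits went the same way in smaller steps. All 31 had a negative interaction and 27 an unadjusted p under 0.05; none passed at 0.05 by edgeR, and 5 were at an adjusted p under 0.1 (Cox7b, Cox8b, Uqcrb, Ndufb8 and Cox5b). The median interaction was -0.53 log2, with -0.28 in soleus, where all 31 values were negative, and 0.22 in plantaris, where 30 were positive. By complex, the median was -0.49 for 10 subunits of complex I, which takes electrons from NADH, -0.43 for 4 of complex II, which also serves the citrate cycle, -0.43 for 5 of complex III and -0.43 for 4 of complex V, the ATP synthase. It was -0.76 for 7 subunits of complex IV, cytochrome oxidase, from -1.12 to -0.53, and all 7 had an unadjusted p under 0.05. DESeq2 called 13 of the 31, limma with quality weights 8, the fit without PoWeR animal 10 called 8 and the fit with no filter 10, all negative. None was called without the block, by limma with the animal as a correlation, with all 34 libraries or without any other animal.

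Cox7b, a small subunit of complex IV (chrX:106015700-106022450), had 304 to 403 CPM in sedentary soleus (median 352) and 244, 254, 253 and 264 CPM in PoWeR soleus. In plantaris Cox7b had 177 to 288 CPM in sedentary animals and 240, 528, 331 and 367 CPM in the PoWeR animals, where only animal 10 was within the sedentary range. Its interaction was -1.04 ± 0.22. Cox8b, the muscle form of another such subunit, had 243 CPM in PoWeR against 338 CPM in sedentary soleus and 278 against 192 CPM in plantaris, an interaction of -1.0 ± 0.22 (adjusted p = 0.0894 for both, edgeR).

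Genes of the citrate cycle and of fat oxidation were mostly negative too. Of 14 citrate cycle genes 13 were negative (52.4% of all genes were) and 11 had an unadjusted p under 0.05 (median -0.37). Over all genes 7.31% were negative at that level. The citrate cycle genes were led by Pdha1, the entry enzyme subunit for pyruvate (-0.66 ± 0.15, adjusted p = 0.0894, edgeR). Mdh1, the cytosolic malate dehydrogenase, followed (-0.73 ± 0.22, adjusted p = 0.159). Of 25 genes of fatty acid uptake and oxidation 21 were negative, 16 with an unadjusted p under 0.05 (median -0.42). In neither list did a gene pass the interaction test at 0.05 by edgeR. DESeq2 called 2 citrate cycle genes, both negative, and 7 of the fatty acid genes, 6 negative and 1 positive. Limma with quality weights called 1 and 5, the fit with no filter 1 and 4, and the fit without PoWeR animal 10 called 1 and 2, all negative. Without the block none was called. The median effect of the fatty acid genes was -0.39 in soleus and 0.02 in plantaris. In soleus 4 of them fell past the test (0.121% of all genes did): Decr1, a reductase for unsaturated fats (-0.61), Etfb, an electron carrier of fat oxidation (-0.53), and, named after their values were seen, the thiolase Acaa2 (-0.77) and the dehydrogenase Acadm (-0.58). Decr1 had 157 to 205 CPM in sedentary soleus and 128, 133, 108 and 127 CPM in PoWeR soleus, against 80.3 to 123 CPM in sedentary and 109, 121, 119 and 125 CPM in PoWeR plantaris. Only its soleus groups lay apart, and the interactions were -0.76 ± 0.15 for Decr1 and -0.60 ± 0.13 for Etfb (adjusted p = 0.0778 and 0.0894). The 1 member of the list with a positive interaction at an unadjusted p under 0.05 was Ucp3, an uncoupling protein of fasted muscle (1.05 ± 0.29), whose mean was 239 CPM in sedentary and 122 CPM in PoWeR plantaris against 95.3 and 101 CPM in soleus.

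The regulators of mitochondrial biogenesis did not share this pattern. None of 12 passed or had an unadjusted p under 0.05, and 8 were negative (median -0.05). Gabpa, which binds promoters of respiratory genes, had -0.28 ± 0.13, and Ppard, a fatty acid receptor, had 0.41 ± 0.21. Ppargc1a, the coactivator PGC-1alpha, named for its role, had -0.11 ± 0.39, with effects of -0.59 in soleus and -0.49 in plantaris.

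**Figure D3:**
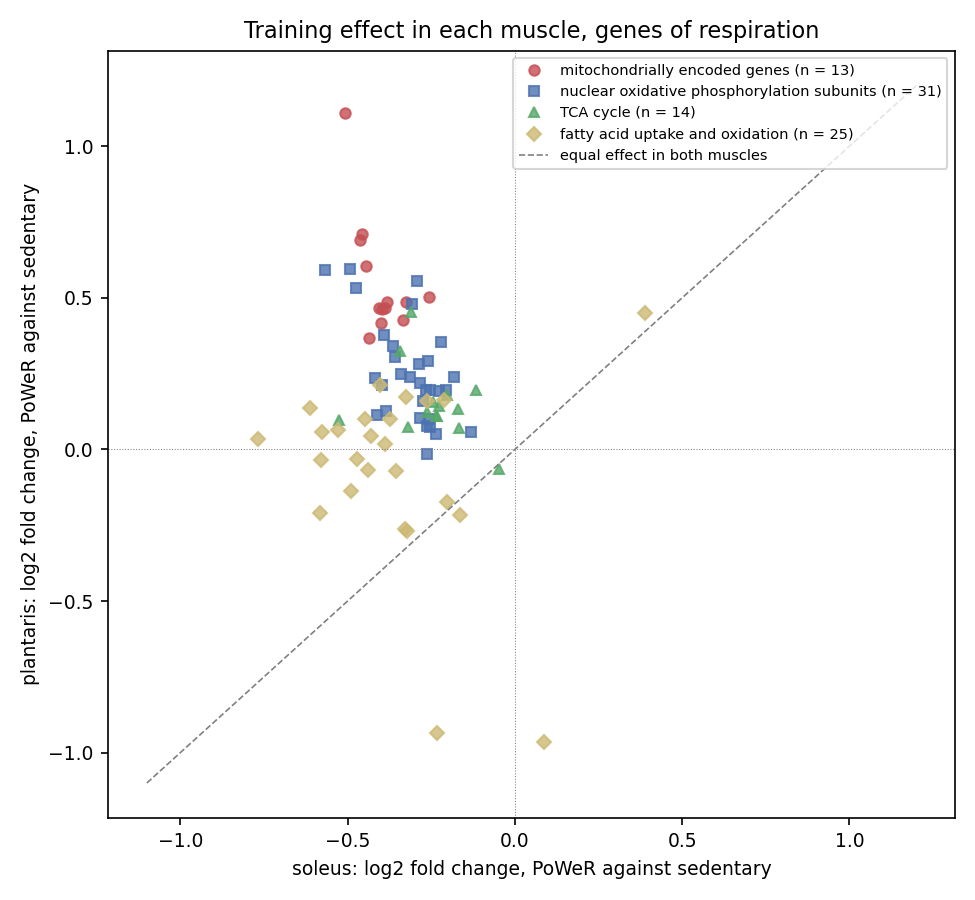
Fitted effect of PoWeR (log2 fold change against sedentary) in soleus, x axis, and plantaris, y axis, for each gene of 4 respiration lists; both effects come from 1 fit over the 18 libraries, and points above the dashed line have the higher value in plantaris. All 13 mitochondrially encoded genes and 30 of the 31 nuclear subunits lie in the upper left corner, while fatty acid genes spread around 0 on the plantaris axis; none of these genes passed the interaction test at 0.05.

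Fibre type was read from the heavy chains as shares of the summed counts of Myh7, Myh2, Myh1 and Myh4. Myh7 took 52.8 ± 2.7% in sedentary and 57.7 ± 4.88% in PoWeR soleus, and 0.612 ± 0.504% and 1.33 ± 0.991% in plantaris (SD, n = 5 and 4). Its CPM in plantaris were 994, 406, 148, 699 and 60.7 in sedentary and 1781, 596, 710 and 305 in PoWeR animals, so the groups overlapped. In soleus Myh7 had 22342, 28368, 22177, 24696 and 20978 CPM in sedentary and 22228, 26490, 31063 and 24172 CPM in PoWeR animals, also overlapping. The difference of log2 shares was -1.30 (exact permutation p = 0.254; adjusted p = 0.27), and in percentage points it turned to 4.17 (exact permutation p = 0.19).

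Myh2, the heavy chain of fast oxidative fibres, had 14858, 18087, 20004, 14990 and 14032 CPM in sedentary and 8694, 17992, 12838 and 16458 CPM in PoWeR soleus. In plantaris Myh2 had 8365, 6907, 6930, 7429 and 1946 CPM in sedentary and 5035, 10246, 6775 and 11811 CPM in PoWeR animals. Levels overlapped in both muscles, and sedentary animal 16 was far below its group in plantaris. Its share differed by -1.01 log2 (exact permutation p = 0.0476; adjusted p = 0.119 over 5 shares) and by -0.57 without that animal (exact permutation p = 0.0857).

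Myh1, the heavy chain of fast fibres of the intermediate kind, had 4853, 4140, 3685, 4925 and 4375 CPM in sedentary and 9641, 1634, 3644 and 3576 CPM in PoWeR soleus. In plantaris Myh1 had 15912, 20279, 15888, 16031 and 14464 CPM in sedentary and 16692, 17615, 26820 and 32490 CPM in PoWeR animals. PoWeR soleus held both the highest and the lowest Myh1 of that muscle, and the log2 share differed by -0.90 (exact permutation p = 0.254). The share of Myh1 without PoWeR animal 10 differed by -1.54 (exact permutation p = 0.0357).

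Myh4 had 103, 1649, 35.1, 14.6 and 14.4 CPM in sedentary and 404, 187, 414 and 29.4 CPM in PoWeR soleus. In plantaris Myh4 had 54814, 46130, 50050, 45674 and 74596 CPM in sedentary and 43017, 13698, 52226 and 31731 CPM in PoWeR animals. Sedentary animal 13 stood alone at the top in soleus and PoWeR animal 12 at the bottom in plantaris, and groups overlapped in both. The log2 share of Myh4 differed by 1.92 (exact permutation p = 0.27), and in percentage points by 19.5 (exact permutation p = 0.0476).

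Of 13 slow fibre genes 12 had a negative interaction (median -0.84), but none had an unadjusted p under 0.05: Pln, phospholamban, which restrains the calcium pump, had -0.76 ± 0.42 and Casq2, the slow calsequestrin, -0.73 ± 0.42. Of 15 fast fibre genes 3 were positive and 2 negative at an unadjusted p under 0.05 (7.1% and 7.31% of all genes; median 0.03). Mylk2, the kinase of the fast regulatory light chain, had 0.77 ± 0.25, and Mylpf, that light chain, -0.46 ± 0.15. Ryr1, the calcium release channel, had 0.65 ± 0.23. Among 14 genes of calcium handling and excitation 3 were positive and 1 negative at an unadjusted p under 0.05.

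Genes of the nerve-muscle synapse and of denervated fibres had more positive interactions. Of 12 synapse genes 10 had a positive interaction (47.6% of all genes did), 7 at an unadjusted p under 0.05 (7.1% of all genes), and none a negative one at that level (median 0.39), and the list's median difference within animals was -0.08 to 0.30 log2 in sedentary and 0.44 to 0.66 in PoWeR animals. None passed at 0.05 by edgeR, and DESeq2 called Dok7. Beside Dok7 these were Nrcam, a neuronal adhesion molecule (2.30 ± 0.78), and, named after their values were seen, the acetylcholine receptor subunit Chrnb1 (0.66 ± 0.22), its anchor Rapsn (0.51 ± 0.20), acetylcholinesterase, Ache (0.62 ± 0.25), Etv5 (0.39 ± 0.16) and agrin, Agrn (0.38 ± 0.16). Musk, the receptor kinase, had -0.37 ± 0.19. Nrcam had 0.565 to 1.70 CPM in sedentary and 9.84, 10.7, 2.61 and 4.80 CPM in PoWeR soleus, without overlap, and at most 0.95 CPM in plantaris, and it rose in soleus (2.60 log2; adjusted p = 0.0269; 0.0877% of all genes did).

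Of 13 genes of the denervation response 4 were positive and 1 negative at an unadjusted p under 0.05 (7.1% and 7.31% of all genes; median 0.67, and 0.89 in soleus against 0.08 in plantaris). The positive ones were Runx1 and, named after their values were seen, the fetal receptor subunit Chrng (3.4 ± 0.99), Gadd45a, a stress gene of denervated nuclei (2.52 ± 0.66), and the deacetylase Hdac4 (0.77 ± 0.31). Gadd45a had 5.18 to 16 CPM in sedentary soleus and 102, 182, 11.5 and 29.2 CPM in PoWeR soleus, so animals 10 and 12 were again highest and animal 14 within the sedentary range. Chrng had 0.248 to 0.96 CPM in sedentary soleus and 6.18, 2.87, 0.284 and 1.49 CPM in PoWeR soleus, where animal 14 was again within the sedentary range. Myh8, the neonatal heavy chain, had the negative value, -1.30 ± 0.28 (adjusted p = 0.0894). In sedentary plantaris animal 14 was the highest for Runx1 (16.4 CPM) and Gadd45a (89.9 CPM), as it was for both keratins. With 1 animal left out at a time the interaction of Runx1 was 1.76 to 2.29 and passed in 1 of 9 fits.

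All 10 satellite cell and myogenic genes tested, of 11 listed, had a positive interaction (47.6% of all genes did), 5 with an unadjusted p under 0.05 (median 0.55, and 0.82 in soleus against 0.03 in plantaris). Des, the muscle intermediate filament, had 0.49 ± 0.14 and Myod1, the muscle determination factor, 0.97 ± 0.29 (adjusted p = 0.151 and 0.161, edgeR). Myod1 had 5.11 to 7.93 CPM in sedentary soleus and 20, 8.56, 15.2 and 8.74 CPM in PoWeR soleus, where all 4 animals were above the sedentary ones, and 9.44 to 26.6 CPM in plantaris, where groups overlapped. The fusion genes Mymk and Mymx, named after their values were seen, had 3.01 ± 1.25 each at means under 1 CPM in every group.

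Most genes of ribosome assembly and of protein breakdown had a positive interaction (47.6% of all genes did). Few of them had an unadjusted p under 0.05 (7.1% of all genes in that direction). Of 15 ribosome biogenesis genes 13 were positive and 4 had an unadjusted p under 0.05, led by the assembly factors Bop1 (0.50 ± 0.17) and Wdr12 (0.41 ± 0.14). The 16 genes of ribosomal proteins went the other way, with 2 positive and 14 negative. Their median was -0.19, with -0.10 in soleus against 0.08 in plantaris. Of 14 genes of atrophy signalling 13 were positive and 3 had an unadjusted p under 0.05, among them Sqstm1, an autophagy receptor (0.54 ± 0.15), and Fbxo21, a ubiquitin ligase subunit (0.49 ± 0.19). All 12 glucocorticoid and fasting targets were positive, 2 with an unadjusted p under 0.05, the metal binding protein Mt2 (0.85 ± 0.24) and Tsc22d3, a glucocorticoid-induced repressor of inflammation (0.87 ± 0.24). The 15 growth signalling genes did not lean that way, with 5 positive and 10 negative (median -0.15). Among them Myc had 1.10 ± 0.39 and was the only one with an unadjusted p under 0.05.

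Genes of blood vessels leaned the other way. All 10 angiogenic factors had a negative interaction (52.4% of all genes did), 5 with an unadjusted p under 0.05 (7.31% of all genes; median -0.36), and the list's median difference within animals was 0.49 to 0.83 log2 in sedentary and 0.06 to 0.47 in PoWeR animals. Such medians did not overlap for 7 of the 41 lists, 3 with PoWeR higher and 4 with PoWeR lower. Fgf1 had -0.62 ± 0.16 and Angpt1, a stabiliser of capillaries, -0.54 ± 0.20 (adjusted p = 0.11 and 0.226, edgeR). Of 12 endothelial markers 11 were negative, 4 with an unadjusted p under 0.05 (median -0.33), led by Pecam1 (-0.50 ± 0.17) and Emcn (-0.78 ± 0.31), and their median effect was 0.23 in soleus and 0.50 in plantaris. Their summed level was 244 to 420 CPM in sedentary and 231 to 499 CPM in PoWeR soleus, against 219 to 329 and 348 to 438 CPM in plantaris. All 8 smooth muscle and pericyte markers were negative, and Rgs5, a pericyte gene, had -0.82 ± 0.20.

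Markers of several cell types outside the fibres were highest in the plantaris of PoWeR animal 12. All 11 Schwann and myelin markers tested, of 12, had a negative interaction (median -0.92, or -1.43 without the block), as 52.4% of all genes did. S100b (-1.99 ± 0.70) alone had an unadjusted p under 0.05, 1 of 11 against 7.31% of all genes in that direction. The summed level of these markers was 49.8 to 304 CPM in PoWeR plantaris, with animal 12 highest and a median of 55.3. It was 26.9 to 64.5 CPM in sedentary plantaris. Animal 12 was also highest in PoWeR plantaris for mast cell markers (55.5 CPM, median 10.5), macrophage markers (362 CPM, median 107) and fibro-adipogenic progenitor markers (2350 CPM, median 915). Of 10 adipocyte markers 9 were negative (median -0.87, or -1.52 without the block), against 52.4% of all genes. Those with an unadjusted p under 0.05 were 2, Cidea (-1.35 ± 0.43) and Fabp4 (-0.80 ± 0.35), against 7.31% of all genes. Of the adipocyte markers listed, Ucp1, a marker of brown fat, was not among those tested. The other 10 summed to 3690 to 5360 CPM in PoWeR and 4602 to 6400 CPM in sedentary plantaris. Gene by gene, 9 of these 10 had a positive fitted effect of PoWeR in plantaris (median 1.42 log2, against -0.08 in soleus). The sum gives most weight to the genes with the highest levels. The part of these cells in the other results was not tested. Leaving out sedentary animal 16 and PoWeR animal 12 together gave 7 called genes: Krt18, Krt8, Ckmt2, Ly6d, Padi2, Phlda3 and mt-Nd6.

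**Figure D4:**
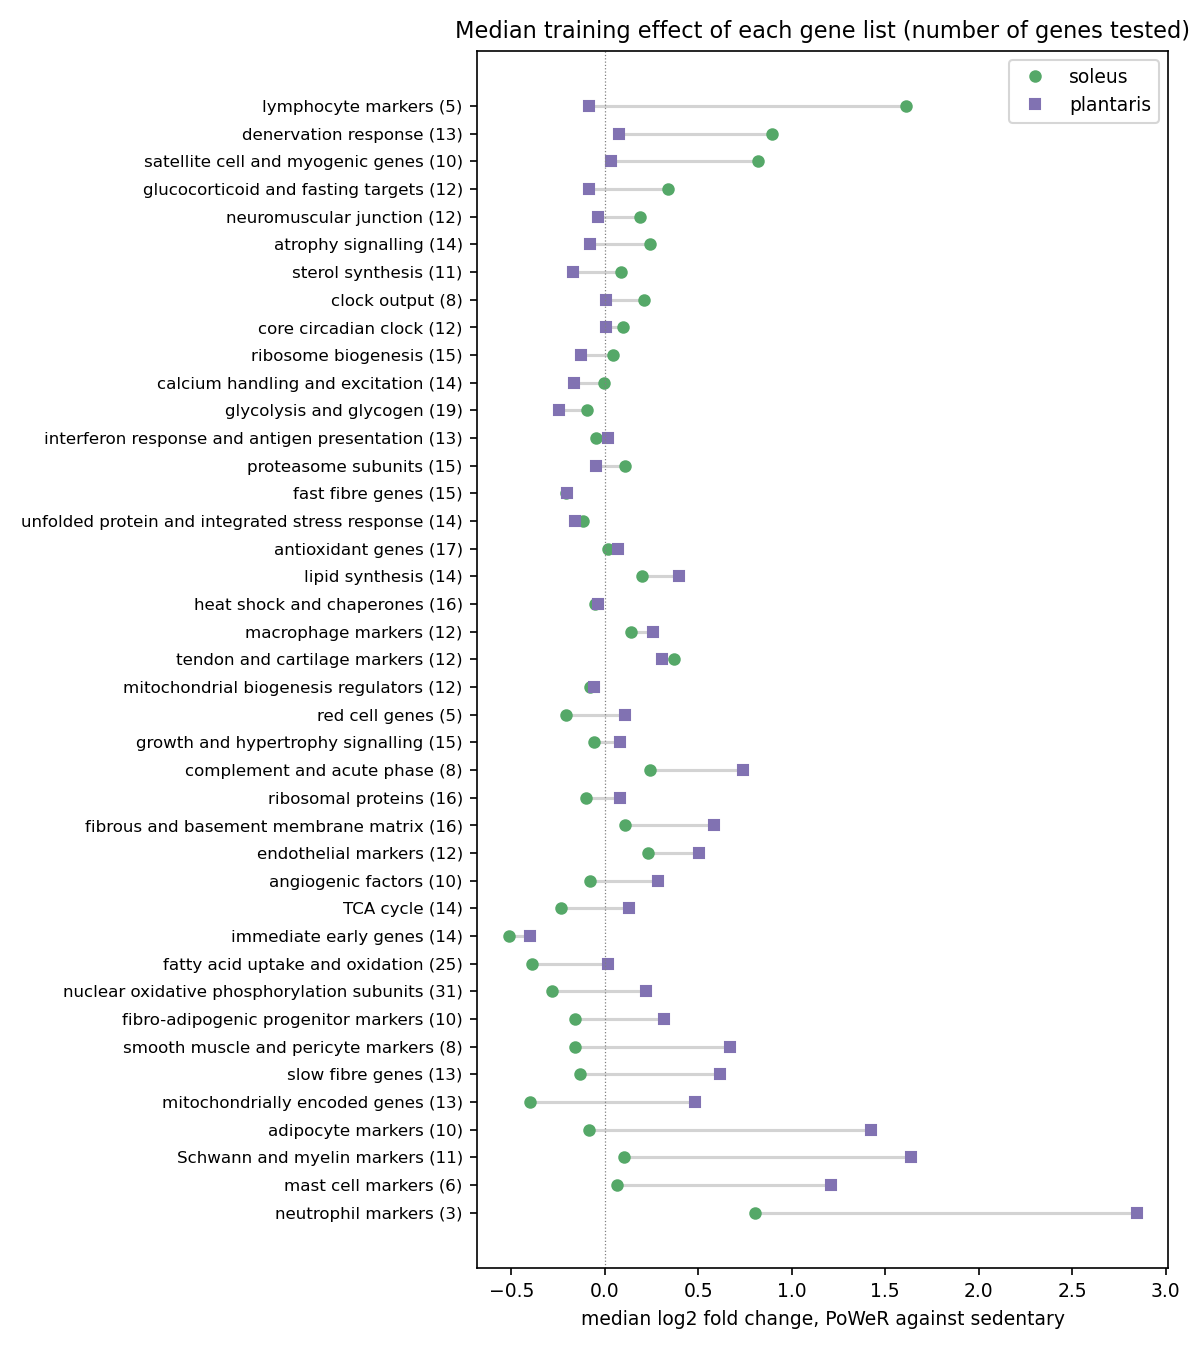
Median effect of PoWeR (log2 fold change against sedentary) over the tested genes of each of 41 lists, in soleus (circles) and plantaris (squares), with the number of genes in brackets and lists ordered by their median interaction. Denervation and satellite cell genes have their higher value in soleus, mitochondrial genes and most markers of other cell types in plantaris; the neutrophil (3 genes) and lymphocyte (5 genes) lists stand at the ends.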

How the data were processed

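The table the authors deposited holds estimated counts, also called expected counts, per gene for 23011 genes in 34 libraries, not normalized; 26.7% of its values are not whole. STAR 2.7.3a, Partek, DESeq2 and mm10 are named, without role or order, per the submitters' processing notes. Of the gene names shared with GENCODE M21, 98.9% had the same position. Counts of the 18 aged libraries were rounded to whole numbers, and groups were taken from the source names.

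The 14823 genes kept by filterByExpr (minimum count 10, minimum total 15) were fitted with edgeR 4.0.16 (TMM factors, robust quasi-likelihood, a term per animal, 7 residual degrees of freedom), with Benjamini-Hochberg adjustment over all of them. Effects within a muscle came from a fit of 4 group means. Differences within animals are of log2 CPM with a prior count of 2. Shares were tested by exact permutation of the animals (scipy 1.17.1). DESeq2 1.42.0 and limma 3.58.1 (R 4.3.3) were alternatives, with other scalings, filters and sets of animals. In a single draw of simulated data, interactions were placed only in genes above a low mean count. The fit recovered 41 of 100 interactions of 2-fold and 5 of 100 of 1.5-fold among 14823 genes, and 8% of its 50 calls were false.

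The members and the 41 gene lists were chosen with earlier results of these data known. Named were, among genes with a mean of at least 1 CPM in a group, the 12 with the smallest p in each direction, and from each list up to 3 called members or otherwise the 2 with the smallest p; some of these are not reported here. The counting of strand is not given in the sources used here. Young libraries entered 1 alternative only.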

Additional observations from a re-analysis of the deposited data

Results flagged for a closer look

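In 12 of 68 groups checked, a library stood apart from the rest of its group by more than Dixon's 95% critical value. Chance gives this in about 1 in 20 groups of independent, normally spread values. That rate need not hold for CPM near 0, or for myosin CPM and shares taken from the same counts. Among the keratins these were Krt18 in soleus of sedentary animal 14 (1.69 CPM) and in its plantaris (19.4 CPM), and Krt8 in soleus of the same animal (0.0565 CPM) and in plantaris of PoWeR animal 12 (1.48 CPM). The value of Krt8 in soleus is 1 count in a group otherwise at 0. In PoWeR plantaris, Vars was highest in animal 10 (47.0 CPM) and Dok7 in animal 15 (27.7 CPM).

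Of the myosins, sedentary animal 13 had the highest Myh4 in soleus (1649 CPM; 3.16% of the heavy chain counts) and the highest Myh1 in plantaris (20279 CPM). Sedentary animal 16 had the lowest Myh2 in plantaris (1946 CPM; 2.14% of the heavy chain counts). In soleus the highest share of Myh2 in a sedentary animal was 43.6%, in animal 14.

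The effect of PoWeR differed between the muscles, by the test of the interaction itself, for Krt18 (5.13 log2) and Krt8 (8.44 log2).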

How the results depend on the processing

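The replicate block rests on library numbers, which the labels do not tie to animals. Deviations of libraries with the same number correlated with r of 0.119 to 0.244 for 8 of 9 pairs and 0.019 for sedentary number 12, and 8 of 9 soleus libraries correlated best with their own number. The plan took the numbers as pairs only where every such r is over 0.1. Sedentary number 12, with an r of up to 0.139 to another number, missed this, and the block was kept all the same. Without the block 0 genes were called in place of 2.

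The count of 2 interaction genes became 0 with limma and the block as a correlation, 247 with DESeq2, 133 with limma quality weights, 242 with no filter on low counts, 20 with all 34 libraries, 1 over genes above 5 mean CPM, 7 without sedentary animal 16 and PoWeR animal 12 together, and 0 to 155 with 1 animal left out; it stayed 2 with RLE factors and without mitochondrially encoded genes, though the latter took the count at an adjusted p under 0.1 from 105 to 14. The soleus count of 31 became 225 with only the 2 groups compared, 200 with DESeq2 and 1 to 42 with 1 animal left out. The plantaris count of 1 became 0 with only the 2 groups compared, 119 with DESeq2, 2 with no filter and 0 to 33 with 1 animal left out. The cause was not tested for any of these.

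In percentage points the share of Myh7 reversed to 4.17 and that of Myh4 was 19.5. With 1 animal left out the share of Myh2 ran from -1.17 to -0.57 and the share of Myh1 from -1.54 to -0.39 on the log2 scale.

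The genes given here as reversed had not passed the test. The interaction of Alas2 (0.18) was -0.0304 with quality weights and -0.44 to 0.69 without 1 animal, below 0 without sedentary 14 (-0.18) or 16 (-0.10) or PoWeR 10. The interaction of Hbb-bs (-0.21) was -0.71 to 0.32 without 1 animal, above 0 without sedentary 12 (0.063) or 15 (0.016) or PoWeR 12, and 0.18 without sedentary 16 and PoWeR 12 together. The interaction of Cd79a (0.43) was -0.79 to 1.09 without 1 animal, below 0 without sedentary 16 (-0.71) or PoWeR 10. It was -0.39 without sedentary 16 and PoWeR 12 together. The interaction of Serping1 (-0.32) was -0.52 to 0.024 without 1 animal, above 0 without PoWeR 12, and 0.21 without sedentary 16 and PoWeR 12 together. Of the 41 list medians 2 moved without sedentary 16 and PoWeR 12 together. In the simulation with 5 and 4 animals, 5 of 100 interactions of 1.5-fold were recovered. It was a single draw with no interaction placed in low-count genes, so it does not cover genes such as Krt8.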

Other observations

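Among genes of stress and of the early response to activity, single members stood out of lists with medians near 0 or below. Dusp1, a phosphatase that ends kinase signalling, fell in soleus (-1.64 log2; adjusted p = 0.0247, edgeR), with a mean of 25.8 CPM in PoWeR against 80.6 CPM in sedentary soleus and 43.1 against 71.0 CPM in plantaris, and its interaction was -0.96 ± 0.26 (SE; adjusted p = 0.15). Junb, an activity-induced transcription factor, had 0.63 ± 0.24. Cryab, a small heat shock protein of oxidative fibres, had -0.78 ± 0.17 (adjusted p = 0.0894), and Hsp90ab1, a cytosolic chaperone, 0.36 ± 0.15. Of 17 antioxidant genes 9 were positive and 8 negative (median 0.01). Of the 17, 4 were negative with an unadjusted p under 0.05 (7.31% of all genes), led by the mitochondrial enzymes Sod2 (-0.44 ± 0.14) and Prdx5 (-0.40 ± 0.14). Ddit3, a factor of the stress response of the endoplasmic reticulum, had -0.73 ± 0.25 and Herpud1, of the same list, 0.43 ± 0.16.

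In sugar metabolism 15 of 19 genes had a positive interaction (median 0.15), against 47.6% of all genes. Pygm, the glycogen phosphorylase of muscle, was at 0.54 ± 0.21 and Gbe1, the glycogen branching enzyme, at -0.35 ± 0.13. The clock genes Per2 (0.84 ± 0.35) and Cry1 (0.36 ± 0.17) and the clock output gene Tef (0.48 ± 0.19) had an unadjusted p under 0.05. Over all genes 7.1% were positive at that level. Of 12 core clock genes 10 were positive, against the same 47.6%. Elovl5, a fatty acid elongase, had -0.47 ± 0.21. No member of the lists for sterol synthesis, the proteasome, the matrix, the interferon response, complement, macrophages, mast cells, lymphocytes or red cells had an unadjusted p under 0.05 by edgeR, and their median interactions ran from -0.97 for 6 mast cell markers to 1.40 for 5 lymphocyte markers. Cxcl10, an interferon-induced chemokine outside these lists, named after its value was seen, had 4.19 ± 0.97 (adjusted p = 0.0894). S100a9, a neutrophil gene, had -2.33 ± 0.89, and Scx, a tendon transcription factor, 0.50 ± 0.20.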
